A study of Mus musculus with 18 samples.

Results

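The transporters that carry glucose into cells and lactate out of them were followed in 3 mouse stem cell types under low oxygen. The group was fixed by name and held 4 genes, Slc2a1, Slc2a3, Slc16a1 and Slc16a3, out of 14804 genes listed in at least 1 of the tables, and all 4 were listed and tested in each of the 3 cell types. ESCs represent the epiblast of the embryo, TSCs the trophoblast that builds the placenta, and XEN cells the primitive endoderm. The ESCs were of the E14 line and grew in serum with LIF on gelatin without feeders. The TSCs grew on feeder cells in medium with FGF4 and heparin, and the XEN cells on gelatin in medium conditioned by feeders; the labels do not name the line of either. The labels give no genetic change for any group. Libraries were made from each cell type in normoxia, at 20% oxygen, and after 2 and 7 days of hypoxia, at 2% oxygen, which makes 9 groups with 2 replicates each and 18 RNA-seq libraries, so the question for each gene was how its RNA differed after a short and after a longer stay in hypoxia.

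The authors deposited TPM, transcript values scaled to gene length and library size, in 1 table per cell type. Times the full length of a gene with its introns, nearly all of these values were whole multiples of 1 step per library, and times the exon length few were. Levels of different genes are therefore compared here as exon-length TPM, which was recomputed from the reads behind the deposited values and the summed exons of each gene. The libraries held between 35592641 and 75204029 reads on genes, and each member had at least 1928 reads in every library, except Slc16a3 in XEN cells, where the lowest library had 98. Marker genes of the labelled cell type were present: the 7 ESC markers summed to between 5754 and 6167 exon-length TPM in ESCs, the 7 TSC markers to between 4839 and 11073 in TSCs and the 7 XEN markers to between 2857 and 3408 in XEN cells. Most of the TSC sum was Krt8, with between 3622 and 10360 in TSCs, and the TSC list summed to between 1084 and 1895 in XEN cells. The TSC markers Elf5, Cdx2 and Eomes lay between 33.3 and 180, 34.0 and 153, and 67.2 and 283 in TSCs. All 9 fibroblast markers were listed in TSCs, where their sum was 1458 and 203 under normoxia, 152 and 775 at day 2 and 332 and 211 at day 7, against at most 30.2 in any ESC library and 8.13 in any XEN library. The share of feeder RNA in the TSC libraries and its part in the values below were not tested. In such bulk samples, fewer cells with a transcript and less of it per cell cannot be told apart.

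Glucose crosses the cell membrane through the GLUT proteins of the SLC2 family, which let it run down its gradient. Slc2a1 encodes GLUT1, the carrier for basal uptake in most tissues and at the placenta, and Slc2a3 encodes GLUT3, a carrier with a high affinity for glucose that is known from neurons and from the early embryo. Cells that rely on glycolysis turn pyruvate into lactate, which leaves together with a proton through the monocarboxylate transporters (MCTs) of the SLC16 family. Slc16a1 encodes MCT1, which carries lactate, pyruvate and ketone bodies in either direction, and Slc16a3 encodes MCT4, which serves lactate export in highly glycolytic cells. Genes of glucose uptake, glycolysis and lactate export are known as targets of the hypoxia-inducible factors (HIFs).

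HIFs are known to bind a short DNA core, ACGTG or GCGTG, so the 250 bases before the RefSeq start site of each member are shown with every match to that core in capitals, on either strand (CACGT and CACGC on the other strand). The promoter table (RefSeq, GRCm38.p6) held 3 of the 4 members, and Slc2a3 was not among them. The windows are Slc2a1 at chr4:119108495-119108744, Slc16a1 at chr3:104638414-104638663 and Slc16a3 at chr11:120948817-120949066, all on the plus strand.
Slc2a1: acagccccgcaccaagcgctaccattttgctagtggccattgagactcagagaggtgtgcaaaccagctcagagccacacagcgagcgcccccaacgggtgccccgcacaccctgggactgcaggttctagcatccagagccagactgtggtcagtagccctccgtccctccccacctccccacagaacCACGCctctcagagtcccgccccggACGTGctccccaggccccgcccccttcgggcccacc
Slc16a1: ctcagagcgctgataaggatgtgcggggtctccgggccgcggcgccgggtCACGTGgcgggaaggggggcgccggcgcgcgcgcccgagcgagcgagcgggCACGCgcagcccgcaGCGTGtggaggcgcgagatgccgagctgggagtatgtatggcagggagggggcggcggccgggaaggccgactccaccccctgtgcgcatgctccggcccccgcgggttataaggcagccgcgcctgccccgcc
Slc16a3: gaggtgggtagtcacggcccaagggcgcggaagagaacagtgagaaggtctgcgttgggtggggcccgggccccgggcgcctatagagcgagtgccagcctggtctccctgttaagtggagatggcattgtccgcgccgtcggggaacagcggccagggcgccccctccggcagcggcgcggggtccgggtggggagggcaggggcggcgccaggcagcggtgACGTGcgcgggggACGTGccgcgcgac
Slc2a1 held 2 matches, at -61 to -57 and -36 to -32 from the start, and Slc16a3 held 2, at -27 to -23 and -14 to -10. Slc16a1 held 4, of which 2 were overlapping readings of a single palindrome, CACGTG at -200 to -195. At least 1 match was present in 38.6% of the 32851 promoter windows in the table, and at least 2 in 16.7%. All 3 windows were richer in G and C than the median window (66.4%, 76.4% and 73.6% for Slc2a1, Slc16a1 and Slc16a3, against 52.4%). The letters are a description of these windows and say nothing of binding.

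In the annotation (GENCODE, GRCm38), Slc2a1 (ENSMUSG00000028645) lies on the plus strand at chr4:119108711-119137983 with 3506 exon bases, of which 105 are shared with the antisense gene Gm12868. Slc2a3 (ENSMUSG00000003153) lies on the minus strand at chr6:122727809-122801640 with 7245 exon bases. Slc16a1 (ENSMUSG00000032902) lies on the plus strand at chr3:104638668-104658462 with 4426 exon bases, and Slc16a3 (ENSMUSG00000025161) on the plus strand at chr11:120948480-120960868 with 5318 exon bases. As annotated here, Slc2a1 and Slc16a3 start upstream of the RefSeq starts used above, so their windows reach into the annotated genes. No other exon of a neighbouring gene overlapped those of the members.

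In normoxia, Slc2a1 was the most abundant member in ESCs and TSCs by exon-length TPM, and Slc2a3 was in XEN cells. On the exon-length scale, TSCs had 1079 ± 444 of Slc2a1 and 49.7 ± 19.5 of Slc2a3 (mean ± SD, n = 2 here and below), whereas XEN cells had 250.4 ± 28.3 of Slc2a1 and 1340 ± 608 of Slc2a3. ESCs lay between them for Slc2a3, with 258 ± 35.96, beside 310.0 ± 20.5 of Slc2a1. The order of these genes in ESCs depended on the length used. Slc2a3 made up 45.4% of Slc2a1 plus Slc2a3 with exon lengths and 40.5% with the deposited TPM. With undivided reads it made up 63.2%, and with transcript length 58.6%. For the lactate carriers, XEN cells had 502 ± 53.8 of Slc16a1 and 1.78 ± 1.01 of Slc16a3. TSCs had 169 ± 9.16 of Slc16a1 and 256 ± 16.0 of Slc16a3, and ESCs 146 ± 11.5 and 38.2 ± 0.230. The MCT4 gene was thus listed near the bottom of the scale in XEN cells, at 140 and 98 reads, and was the more abundant MCT gene in TSCs. Each table was normalized on its own, so these differences between cell types were not tested.

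**Figure D1:**
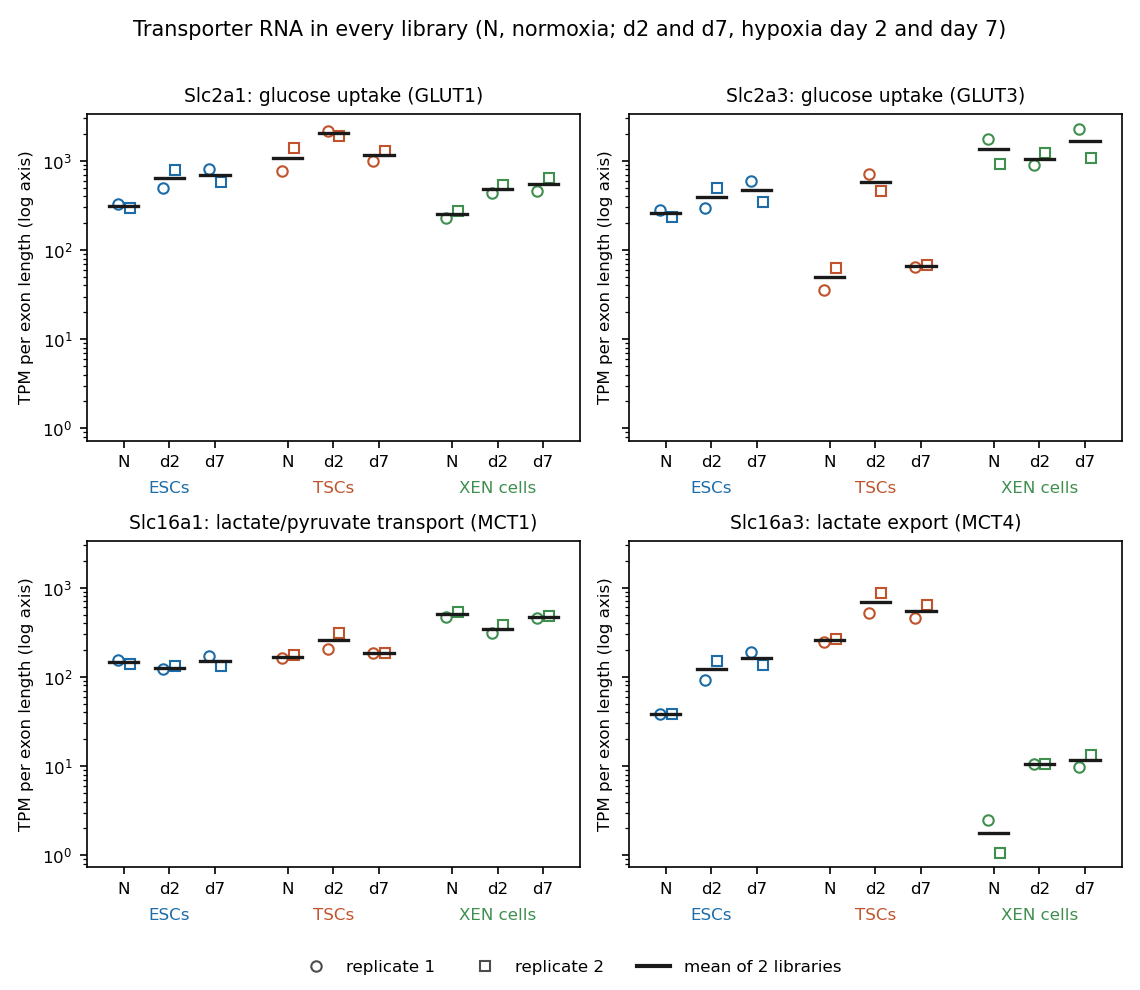
Exon-length TPM of the 4 transporter genes in each of the 18 libraries, on a log axis, by cell type and condition; circles and squares are replicates 1 and 2 and lines are means of 2 libraries. Slc16a3 spans from 1.07 in a normoxic XEN library to 866 in a TSC library on day 2 of hypoxia, whereas Slc16a1 stays between 122 and 540.1.

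Ordered over the 9 groups on the exon-length scale, Slc2a1 was highest in TSCs on day 2 (2041 ± 197), which stood apart from TSCs on day 7 (1150 ± 216), the next in order. The 6 groups from TSCs on day 7 down to XEN cells on day 2 overlapped each with its neighbour, and normoxic ESCs and normoxic XEN cells came last, apart from the groups above them. Slc2a3 was highest in the 3 XEN groups, which overlapped each other (1677 ± 838 on day 7, 1340 ± 608 in normoxia and 1049 ± 226 on day 2). TSCs on day 2 followed with 580.2 ± 179, overlapping with ESCs on day 7 (469 ± 174), and the lowest groups were TSCs on day 7 (66.3 ± 1.95) and in normoxia. Slc16a1 was likewise highest in the XEN groups, and the 3 ESC groups were the lowest, between 127 ± 6.55 and 151 ± 26.1. Slc16a3 was ordered by cell type, with all TSC groups above all ESC groups and those above all XEN groups. Within this order, days 2 and 7 overlapped in each cell type and normoxia was the lowest group of its cell type.

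The comparisons below used limma on log2(TPM + 0.5), fitted to the 6 libraries of a cell type, and DE genes were those with a fold change over 1.5 and a Benjamini-Hochberg adjusted p, over all genes tested, of 0.1 or less. Over the 9 comparisons, 3 of the 36 member values were DE: Slc16a3 in ESCs on day 7, and Slc2a3 in TSCs on day 2 and between days 7 and 2. Of all genes tested, DE genes were 0% on day 2, 0.758% on day 7 and 0.179% between the times for ESCs, against 0.2%, 0.385% and 16.2% for TSCs and 0%, 0.11% and 0.0367% for XEN cells. At the same thresholds, the authors report DE genes from their own edgeR test in each cell type at both times. A share of 0% here therefore belongs to the test used here. Both times were compared with the same normoxic libraries. With 2 libraries against 2, an exact permutation test of a single gene cannot go below p = 0.333.

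**Figure D2:**
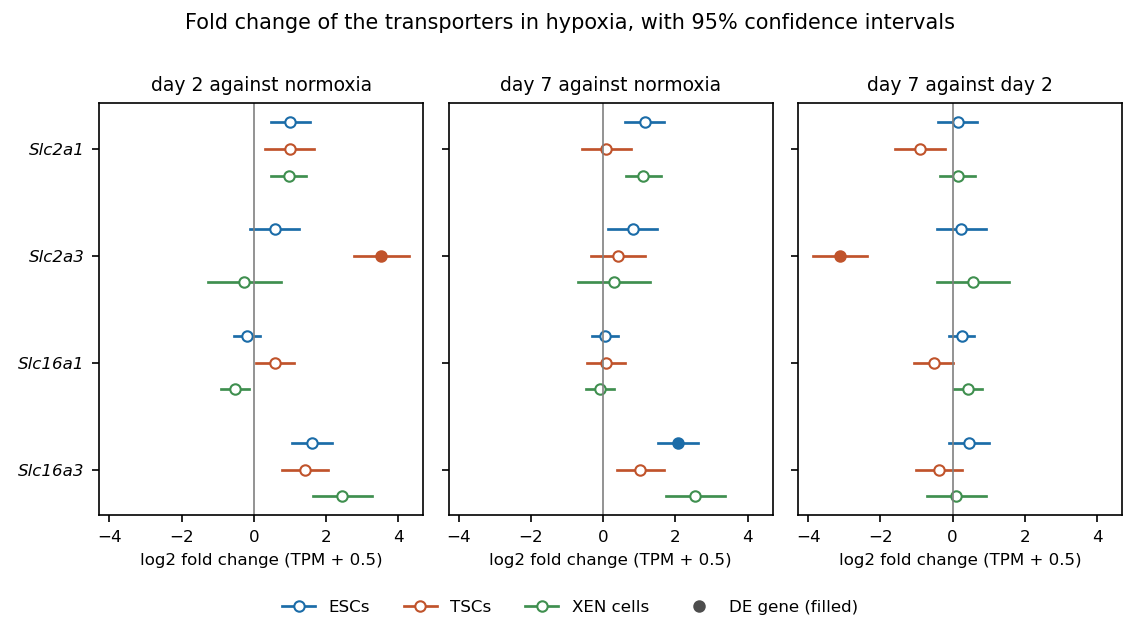
Log2 fold change of each transporter gene on the log2(TPM + 0.5) scale for day 2 against normoxia, day 7 against normoxia and day 7 against day 2; points are limma estimates, bars are 95% confidence intervals, colours are cell types and filled points are DE genes. The filled points are Slc2a3 in TSCs at 3.53 and -3.12 and Slc16a3 in ESCs on day 7 at 2.07.

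For GLUT1, all hypoxic libraries of ESCs and XEN cells were higher than the normoxic ones, by about 2-fold on average. Of all genes tested in ESCs, 16.4% on day 2 and 23.0% on day 7 had both libraries above both normoxic ones. In XEN cells these shares were 19.6% and 17.5%. In ESCs, deposited TPM of Slc2a1 was 117 and 104 under normoxia, 174 and 283 at day 2 and 289 and 208 at day 7. Day 7 overlapped with day 2. The log2 fold change was 1.01 ± 0.24 (SE) on day 2 (limma, adjusted p = 0.534) and 1.15 ± 0.24 on day 7 (limma, adjusted p = 0.119), so Slc2a1 was not DE at either time, although its unadjusted p was 0.00242 and 0.00105. With 1 library left out, the log2 fold change lay between 0.66 and 1.36 on day 2 and between 0.91 and 1.39 on day 7. On day 7 Slc2a1 was DE by voom (1.15, adjusted p = 0.0666), in a fit to the 4 libraries compared (0.00702) and with exon lengths (0.0501). It was not DE with other pseudocounts or filters, after scaling by median ratios, or with the replicate number as a block.

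In XEN cells the TPM of Slc2a1 was 89.5 and 105 under normoxia, 174 and 208 at day 2 and 179 and 247 at day 7. The hypoxic libraries were all above the normoxic ones, and the 2 times overlapped. Log2 fold changes were 0.97 ± 0.20 on day 2 (limma, adjusted p = 0.365) and 1.11 ± 0.20 on day 7 (limma, adjusted p = 0.201).

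In TSCs, TPM of Slc2a1 was 291 and 518 under normoxia, 830.0 and 718 at day 2 and 371 and 461 at day 7. Of all genes tested in TSCs, 30.6% had both day 2 libraries above both normoxic ones. Both day 7 libraries were below both of day 2 for 44.9%. For Slc2a1, both libraries of day 2 stood above the rest, whereas those of day 7 lay between the normoxic pair. Its log2 fold change was 0.99 ± 0.29 on day 2 (limma, adjusted p = 0.260), 0.09 ± 0.29 on day 7 (95% confidence interval -0.60 to 0.78; limma, adjusted p = 0.922) and -0.90 ± 0.29 between day 7 and day 2 (limma, adjusted p = 0.104). The last value crossed the threshold when a normoxic library was left out (adjusted p = 0.0399 without replicate 1 and 0.0408 without replicate 2). The median gene had a log2 fold change of -0.24 between these times, and after scaling by median ratios that of Slc2a1 was -0.61 (adjusted p = 0.306).

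GLUT3 rose in TSCs on day 2 of hypoxia and, by deposited TPM, was back near its normoxic level on day 7. Its TPM was 11.2 and 19.4 under normoxia, 220.4 and 140.4 at day 2 and 19.8 and 19.6 at day 7. Both day 2 libraries stood far above every other TSC library. Its log2 fold change was 3.53 ± 0.32 on day 2, an 11.6-fold rise on this scale (limma, adjusted p = 0.0325), and Slc2a3 ranked 2 of 12481 genes from the highest. It fell by 3.12 ± 0.32 on the log2 scale between day 2 and day 7 (limma, adjusted p = 0.0114). Day 7 against normoxia gave 0.41 ± 0.32 (limma, adjusted p = 0.693), with a 95% confidence interval from -0.35 to 1.16. Both day 7 libraries were above both normoxic ones, as for 8.98% of all genes tested. In this comparison the median gene had a log2 fold change of -0.18. After scaling by median ratios, Slc2a3 gave 3.44 on day 2 and -2.84 between day 7 and day 2.

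Slc2a3 was 1 of 25 DE genes on day 2 in TSCs and 1 of 2019 between day 7 and day 2, of which 1723 were lower on day 7. For day 7 against normoxia, no member was DE by limma or by voom, and 1 had an unadjusted p under 0.05, as did 10.4% of all genes tested. The day 2 call of Slc2a3 was lost without either day 2 library (adjusted p = 0.341 without replicate 1 and 0.101 without replicate 2) and without either day 7 library, which enters only the estimate of the spread (0.241 without replicate 1 and 0.243 without replicate 2). It was also lost in a fit to the 4 libraries compared (0.244), while the log2 fold change stayed between 3.15 and 3.91. The call of its later fall was lost without day 7 replicate 2 (adjusted p = 0.151).

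Other measures moved in the same TSC libraries. The sum of the fibroblast markers was highest in normoxia replicate 1 and day 2 replicate 2, and Slc2a3 was higher in the other library of each pair on day 2 and in normoxia. Trophoblast stem cell markers were lower on day 7 than on day 2: 5 of the 7 TSC markers fell, among them Elf5 (log2 fold change -2.30), Cdx2 (-1.68) and Eomes (-1.55), which are transcription factors of the trophoblast lineage. Krt8, a keratin of simple epithelia, rose (1.23). Of the 6 markers of differentiated trophoblast that were tested, Prl3d1, a hormone of giant cells, rose (2.15), and Gcm1 (-1.38) and Ascl2 (-1.16) fell. Of the 5 ESC markers tested in TSCs, 4 fell between these times, Sox2 (-2.85) most, and of the 6 XEN markers Gata4 fell (-1.60) and Pdgfra rose (1.55). Sox2 reached 350 and Esrrb 237 exon-length TPM in a TSC library. On day 7 against normoxia, 1 of the 7 TSC markers was DE, Elf5 (-1.78). Of the 5 ESC markers 2 were, Sox2 (-2.20) and Esrrb (-1.70), beside 0.385% of all genes tested. The part of these markers in the fall of Slc2a3 was not tested.

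In ESCs, TPM of Slc2a3 was 84.0 and 67.0 under normoxia, 86.0 and 146 at day 2 and 175 and 101 at day 7. The lowest library of day 2 was close to the highest normoxic one. Here the log2 fold change was 0.57 ± 0.30 on day 2 (limma, adjusted p = 0.970) and 0.82 ± 0.30 on day 7 (limma, adjusted p = 0.496). In XEN cells, where Slc2a3 was most abundant, TPM was 563 and 289.7 under normoxia, 292 and 386 at day 2 and 720.2 and 345 at day 7. All 3 XEN groups overlapped, with replicate 1 the higher library in normoxia and on day 7 and the lower one on day 2. It gave a log2 fold change of -0.27 ± 0.42 on day 2 (95% confidence interval -1.27 to 0.74) and 0.30 ± 0.42 on day 7 (-0.70 to 1.31). A 2-fold lower value lay inside the first interval and a 2-fold higher one inside the second.

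MCT4 had higher values in all hypoxic libraries than in the normoxic ones of the same cell type, and rose as a DE gene in ESCs on day 7. Its TPM in ESCs was 49.3 and 48.3 under normoxia, 117 and 195 at day 2 and 245 and 175 at day 7. Both libraries of a time lay above both normoxic ones for 16.4% of all ESC genes tested on day 2 and 23.0% on day 7. For Slc16a3, the normoxic libraries were almost equal and the hypoxic ones all higher. In limma the log2 fold change was 1.62 ± 0.24 on day 2 (limma, adjusted p = 0.215) and 2.07 ± 0.24 on day 7, a 4.21-fold rise (limma, adjusted p = 0.0161). Slc16a3 ranked 12 of 12271 genes from the highest on day 2 and 17 on day 7.

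On day 2 in ESCs, limma called none of the 12271 genes tested. There, 620 genes, 2 members among them, had an unadjusted p under 0.05, and voom on the recovered reads called 4 genes, of which Slc16a3 was 1 (adjusted p = 0.0970). Without day 2 replicate 1 it was also DE by limma (1.99, adjusted p = 0.00584). Between day 7 and day 2, no member was DE by limma or voom, with log2 fold changes of 0.14, 0.25, 0.25 and 0.45 for Slc2a1, Slc2a3, Slc16a1 and Slc16a3 and no unadjusted p under 0.05 among them. The day 7 call of Slc16a3 was lost without normoxia replicate 1 (adjusted p = 0.173), normoxia replicate 2 (0.261) or day 7 replicate 1 (0.164), with log2 fold changes from 1.83 to 2.32. In ESCs, day 2 replicate 2 and day 7 replicate 1 had the higher values of Slc2a1, Slc2a3 and Slc16a3 in their groups. The summed exon-length TPM of 10 hypoxia check genes went the same way, at 316 and 314 under normoxia, 518 and 1140 at day 2 and 972 and 486 at day 7, and its part in the spread of the members was not tested. Of the markers of other cells, Col1a1 of the fibroblast list (2.30) and Hand1 of the trophoblast list (2.04) rose in ESCs on day 7, with sums of at most 30.2 and 25.4 exon-length TPM over those lists in any ESC library, and their part was not tested either.

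In TSCs, TPM of Slc16a3 was 334 and 356 under normoxia, 717 and 1172 at day 2 and 615 and 806 at day 7. Of all genes tested in TSCs, 30.6% on day 2 and 8.98% on day 7 had both libraries above both normoxic ones. For Slc16a3, the normoxic libraries lay below all hypoxic ones, and the hypoxic times overlapped. This gave a log2 fold change of 1.41 ± 0.27 on day 2 (limma, adjusted p = 0.149), 1.03 ± 0.27 on day 7 (limma, adjusted p = 0.265) and -0.38 ± 0.27 between day 7 and day 2 (limma, adjusted p = 0.403).

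XEN cells had the least Slc16a3. Its TPM was 3.48 and 1.49 under normoxia, 15.0 and 14.7 at day 2 and 13.7 and 18.8 at day 7, which rested on 140 and 98 reads, 976 and 937 reads, and 638 and 606 reads. Of all genes tested in XEN cells, 19.6% on day 2 and 17.5% on day 7 had both libraries above both normoxic ones. For Slc16a3, hypoxic libraries were all above the normoxic ones, and below the values of normoxic ESCs, a difference not tested. The log2 fold change was 2.45 ± 0.34 on day 2 (limma, adjusted p = 0.287) and 2.55 ± 0.34 on day 7 (limma, adjusted p = 0.103), where Slc16a3 ranked 4 and 10 of 10894 genes from the highest. Both values passed the threshold without normoxia replicate 1 (2.95, adjusted p = 0.0252, and 3.05, adjusted p = 0.0277), and that of day 7 also without normoxia replicate 2 (2.05, adjusted p = 0.0291).

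On day 2 in XEN cells, limma called none of the 10894 genes tested and voom none, while 846 genes, 3 members among them, had an unadjusted p under 0.05. On day 7, and between day 7 and day 2, limma and voom called no member, and 2 and 1 of them had an unadjusted p under 0.05, as did 9.01% and 11.9% of all genes tested.

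For MCT1, no comparison gave a DE gene, and the largest difference from normoxia was a log2 of 0.60. In ESCs, TPM of Slc16a1 was 104 and 90.3 under normoxia, 80.9 and 88.6 at day 2 and 114 and 88.5 at day 7. Day 2 lay just below normoxia, and day 7 overlapped with both. Its log2 fold change was -0.19 ± 0.16 on day 2 (95% confidence interval -0.55 to 0.16) and 0.06 ± 0.16 on day 7 (-0.30 to 0.41). Changes beyond 1.5-fold lay outside both intervals.

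TSCs had a TPM of Slc16a1 of 115 and 122 under normoxia, 146 and 219 at day 2 and 127 and 121 at day 7. Day 2 was above both other groups. There the log2 fold change was 0.60 ± 0.22 on day 2 (limma, adjusted p = 0.342), 0.07 ± 0.22 on day 7 and -0.53 ± 0.22 between the times (limma, adjusted p = 0.183). After scaling by median ratios the last value was -0.24. XEN cells had 337 and 392 under normoxia, 231 and 279 at day 2 and 329 and 352 at day 7, so that day 2 was the lowest group there. Their log2 fold change was -0.52 ± 0.16 on day 2 (limma, adjusted p = 0.554), -0.09 ± 0.16 on day 7 and 0.42 ± 0.16 between the times (limma, adjusted p = 0.410).

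The balance within each pair was taken as a share of the summed exon-length TPM, which does not depend on the scaling of a library. Slc2a3 made up 45.4 ± 1.82% of Slc2a1 plus Slc2a3 in normoxic ESCs, 38.1 ± 0.685% on day 2 and 39.8 ± 3.74% on day 7. In TSCs it was 4.43 ± 0.0844%, 21.9 ± 3.69% and 5.53 ± 0.830%, and in XEN cells 82.8 ± 8.05%, 68.3 ± 1.53% and 73.1 ± 14.2%. The lowest XEN library (63.0%) was above the highest ESC library (46.7%), and that above the highest TSC library (24.5%), so the cell types did not overlap in any condition. In ESCs, both hypoxic groups were below normoxia. In XEN cells, day 2 (67.2% and 69.4%) was below normoxia (88.5% and 77.1%) and day 7 overlapped with both, and in TSCs the day 2 libraries were above the others.

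Slc16a3 made up 20.8 ± 1.40% of Slc16a1 plus Slc16a3 in normoxic ESCs, 48.2 ± 7.43% on day 2 and 51.7 ± 1.38% on day 7. It went from 60.3 ± 0.199% in normoxic TSCs to 72.7 ± 1.19% and 74.6 ± 4.31%, and from 0.367 ± 0.239% in normoxic XEN cells to 2.98 ± 0.425% and 2.41 ± 0.417%. The MCT4 share was higher in all hypoxic libraries than in the normoxic ones of the same cell type, and no test of the shares was made. They depend on the gene length used. For normoxic ESCs that of Slc16a3 was 33.5% with the deposited TPM, 23.99% with undivided reads and 38.1% with transcript length. In hypoxic ESCs it was 64.0% on day 2 and 67.3% on day 7 with the deposited TPM, and 68.3% and 71.5% with transcript length.

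**Figure D3:**
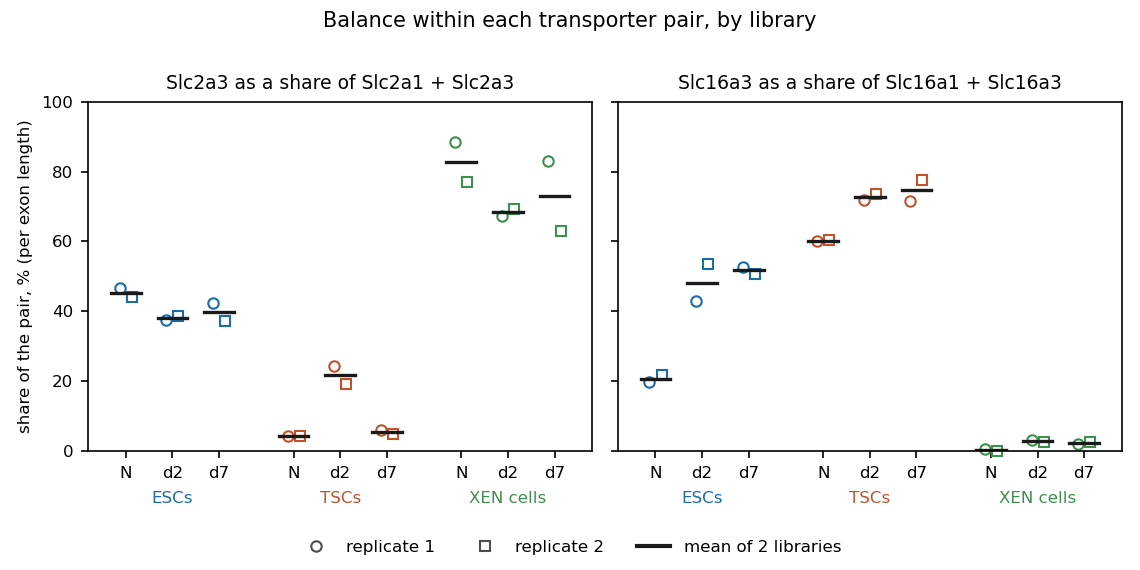
Share of Slc2a3 in Slc2a1 plus Slc2a3 (left) and of Slc16a3 in Slc16a1 plus Slc16a3 (right), in % of exon-length TPM, in every library; circles and squares are replicates 1 and 2 and lines are means of 2 libraries. The Slc2a3 share separates XEN cells, ESCs and TSCs, and the Slc16a3 share is higher in hypoxia in each cell type.

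The members accounted for most of the RNA of their families. Slc2a1 and Slc2a3 together took between 94.1% and 99.5% of the summed exon-length TPM of the SLC2 genes listed in a table, and Slc16a1 and Slc16a3 between 73.7% and 96.5% of the SLC16 genes, with the lowest shares of both in TSCs. Among the rest in normoxic TSCs were Slc16a13 at 82.9 ± 8.16 exon-length TPM, Slc16a6 at 40.6 ± 8.47 and Slc2a12 at 17.6 ± 8.38, genes named for their levels after these were seen. None of the other SLC2 or SLC16 genes tested in ESCs (4 and 9) or in XEN cells (2 and 6) was DE in any comparison. In TSCs, 6 and 7 were tested and 3 fell between day 7 and day 2: Slc2a4, the insulin-responsive carrier GLUT4 (log2 fold change -2.12), Slc2a8, an intracellular GLUT (-1.51), and Slc16a11 (-0.95). Of all genes tested in this comparison 16.2% were DE, 1723 of the 2019 lower. The others did not pass the test, and none was DE against normoxia.

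MCT1 and MCT4 need a partner protein to reach the membrane, basigin (Bsg) or embigin (Emb). Bsg was abundant in all cell types in normoxia, at 627 ± 57.8 (ESCs), 1359.5 ± 118 (TSCs) and 1415 ± 33.1 (XEN cells) exon-length TPM, and Emb lower, at 101 ± 11.3, 18.1 ± 1.11 and 114 ± 39.3. Neither was DE in any comparison, and the log2 fold change of Bsg against normoxia lay between 0.23 and 0.54. Of 5 regulators of GLUT trafficking, such as Txnip and Arrdc4, arrestins that draw GLUTs off the membrane, 4 were tested per cell type and none was DE. In TSCs on day 2 the value was -1.07 ± 0.45 for Txnip (limma, adjusted p = 0.380) and -1.43 ± 0.55 for Arrdc4 (limma, adjusted p = 0.342). In XEN cells that of Txnip had the other sign, 0.62 ± 0.17 on day 2 (limma, adjusted p = 0.480) and 0.67 ± 0.17 on day 7 (limma, adjusted p = 0.378). The sodium-coupled carriers of glucose and monocarboxylates (4 genes of the SLC5 family) summed to at most 9.10 exon-length TPM in an ESC library and 0.763 in a TSC library and were not listed in XEN cells.

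The 16 enzymes of glycolysis that lie between the 2 kinds of carrier were all tested. In ESCs none was DE on day 2 and 3 rose on day 7: Tpi1 (log2 fold change 1.62), Pfkl (1.29) and Ldha (0.99), which makes lactate. In TSCs 3 rose on day 2, Aldoc (3.56), Pgk1 (1.72) and Pfkl (1.65), none differed from normoxia on day 7 by the test, and 8 fell between the times, Aldoc (-2.35), Ldhb (-1.64) and Pfkm (-1.17) most. None was DE in XEN cells. The median log2 fold change of the enzymes on days 2 and 7 was 0.69 and 0.74 (ESCs), 1.06 and 0.27 (TSCs) and 0.47 and 0.28 (XEN cells), beside medians over all genes of 0.01 and 0.02, 0.07 and -0.18, and -0.01 and -0.03. Their summed exon-length TPM in TSCs was 8629 and 7879 under normoxia, 16217 and 15287 at day 2 and 10422 and 11713 at day 7.

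The 10 hypoxia check genes, which are known to respond to hypoxia, gave DE genes in each cell type. They were chosen with earlier results of these data known, so they are no independent check of the oxygen labels. Against normoxia, 9 of the 10 were positive at each time in ESCs, and 7 of 8 in XEN cells. In ESCs the exception on days 2 and 7 was Car9 (-0.25 and -0.30), and in XEN cells it was Ddit4 (-0.52 and -0.01). Ndufa4l2 rose in ESCs on day 7 (3.66). In TSCs, Pdk1 (2.47) and Bnip3 (2.46) rose on day 2, and 5 genes fell between day 2 and day 7, Pdk1 (-2.44), Bnip3 (-1.77) and Ankrd37 (-1.69) most. Of the 8 genes listed in XEN cells, Egln3 rose on day 7 against normoxia (2.81) and against day 2 (2.07). None of the list was DE on day 2 in ESCs or XEN cells, or on day 7 against normoxia in TSCs. The median over the list on days 2 and 7 was 1.17 and 1.11 (ESCs), 1.47 and 0.43 (TSCs) and 0.67 and 0.84 (XEN cells). That of the members was 0.79 and 0.98 (ESCs), 1.20 and 0.25 (TSCs) and 0.35 and 0.71 (XEN cells), and in TSCs the medians of all 3 lists were thus lower on day 7 than on day 2.

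**Figure D4:**
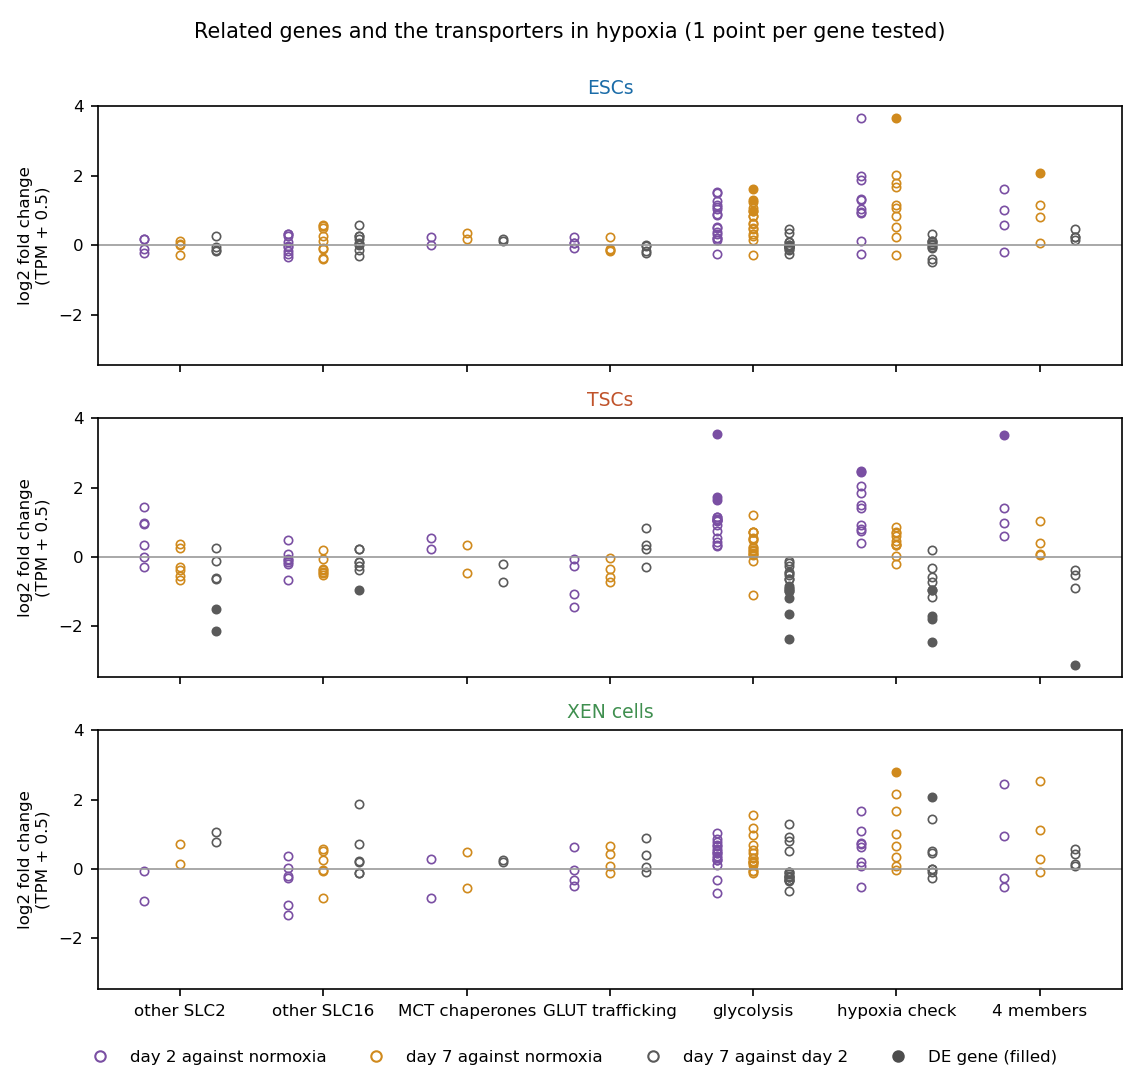
Log2 fold changes on the log2(TPM + 0.5) scale of the genes related to the transporters and of the 4 transporter genes themselves, by cell type (rows) and gene list (columns); each point is a gene tested, colours are comparisons and filled points are DE genes. The medians of the glycolysis and hypoxia check genes in TSCs are 1.06 and 1.47 on day 2 and -0.73 and -0.96 between day 7 and day 2, and the other SLC16 genes stay closer to 0 in ESCs.

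The genes whose pattern was most like that of each member were ranked by Pearson's r over the 18 libraries, on log2(TPM + 0.5) centred within each cell type, among the 10081 genes tested in all 3. For Slc2a1 they were Prelid2 (0.91), Mgarp (0.90) and Pgm1 (0.90), of which Pgm1 encodes a phosphoglucomutase. For Slc2a3 they were Ddah2 (0.97), Fam114a2 (0.95) and Glb1l2 (0.93), and for Slc16a1 Alg6 (0.86), Nudt2 (0.86) and Ttc5 (0.85). For Slc16a3 they were Bnip3 (0.88), a gene of mitophagy, Mettl7b (0.88) and the glycolytic enzyme Tpi1 (0.87). Among the members themselves, Slc2a1 and Slc16a3 were most alike (0.84), followed by Slc2a1 and Slc2a3 (0.61) and by Slc2a3 and Slc16a1 (0.60). Slc2a3 and Slc16a3 were at 0.39, Slc2a1 and Slc16a1 at 0.20, and Slc16a1 and Slc16a3 at -0.01. The values were centred but not scaled, so libraries far from the mean of their cell type weigh more. For Slc2a3 these include TSCs on day 2. The r values describe the 18 libraries, which share conditions and tables, and were given no test.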

How the data were processed

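RNA of 18 libraries (ESCs, TSCs and XEN cells, 3 conditions, 2 replicates per group) was measured by RNA-seq. The authors trimmed reads with cutadapt 2.4, aligned them with STAR 2.7.5a to mm10, counted them on genes and kept expressed protein-coding genes; they deposited TPM, normalized in a table per cell type, and made their own test with edgeR, which was not run here. Columns of day 0 were taken as normoxia. No column was left unmapped (0).

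Whole reads were recovered from the TPM: TPM times gene span was a multiple of a common step, within 0.05, for 13395 of 13578 genes (ESCs, all 6 libraries), 13330 of 13518 (TSCs) and 11367 of 11538 (XEN cells). Reads gave depth, exon-length TPM and the voom alternative. Gene models were of GENCODE on GRCm38, a later release than the authors'.

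Genes were kept where TPM exceeded 0.4 in 2 or more of 6 libraries, and fitted with limma 3.58.1 (R 4.3.3) on log2(TPM + 0.5) with a mean-variance trend, per cell type, without a block for replicate number, at an adjusted p of 0.1 and a fold change of 1.5. Whether same-numbered libraries were grown together is not stated in the sources used here, and p-values measure the spread between these libraries, which may be technical. No test was made between cell types. Tables and figures were made with Python 3.11.15, pandas 2.3.3 and matplotlib 3.10.9. On simulated reads for day 2 against normoxia, with an assumed dispersion of 0.02 that need not hold for these libraries, limma found 100% of 200 genes changed 4-fold among 12036 (ESCs), 12222 (TSCs) and 10683 (XEN cells), with 22, 33 and 31 false calls. This does not give the power in the real data.

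The members and gene lists were chosen with earlier results of these data known. Besides the members, the text names from each list at most the 3 most changed DE genes per cell type and comparison, and the 3 genes most like each member, apart from genes given as examples of level or role. The alternatives were other pseudocounts, filters, scaling, spread estimates, thresholds, tools and libraries left out; TPM with exon lengths, shares by transcript length and the block with swapped numbers were added after the data were seen.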

Additional observations from a re-analysis of the deposited data

Results flagged for a closer look

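For Slc16a1, the gene of MCT1, the fold change in TSCs had the opposite sign to those in ESCs and XEN cells on day 2 and to that in XEN cells between day 7 and day 2, and in each of these the 2 libraries of one group lay on one side of the 2 of the other. The difference between cell types was not tested, and each was normalized on its own. Such separation of 2 libraries from 2 held for 30.8% of all genes tested on day 2 (ESCs), 47.4% (TSCs) and 41.0% (XEN cells), and for 59.3% and 47.7% between day 7 and day 2 in TSCs and XEN cells. On day 2 against normoxia, the log2 fold change was -0.19 in ESCs and 0.60 in TSCs, a difference of -0.789, and 0.60 in TSCs against -0.52 in XEN cells, a difference of 1.11. Between day 7 and day 2 it was -0.53 in TSCs and 0.42 in XEN cells, a difference of -0.949. None of these fold changes was DE in its own cell type by limma, and all 3 differences use the TSC libraries of day 2. The 95% confidence interval included 0 for the ESC value (-0.55 to 0.16). It also did for the TSC value between day 7 and day 2 (-1.06 to 0.005), which was smaller after scaling by median ratios, as given above. With 2 libraries per group, single outlying libraries could not be tested.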

How the results depend on the processing

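Of 36 fold changes of members, all kept their sign under other pseudocounts, filters, scaling, spread estimates, thresholds and tools. Leaving out 1 library reversed 9 of them, with these ranges of log2 fold change: Slc16a1 on day 7 in ESCs, -0.13 to 0.24; Slc2a1 and Slc2a3 between days 7 and 2 in ESCs, -0.21 to 0.49 and -0.15 to 0.64; Slc2a1 on day 7 in TSCs, -0.32 to 0.51; Slc2a3 on days 2 and 7 in XEN cells, -0.75 to 0.21 and -0.23 to 0.83; Slc16a1 on day 7 in XEN cells, -0.20 to 0.015; and Slc2a1 and Slc16a3 between days 7 and 2 in XEN cells, -0.087 to 0.38 and -0.12 to 0.32.

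The number of members that were DE moved as follows, and the causes were not tested. Without 1 library it ranged from 0 to 2 in ESCs (day 2 and day 7) and TSCs (between days 7 and 2), and from 0 to 1 in TSCs (day 2) and XEN cells (both days). In ESCs it was 1 on day 2 and 2 on day 7 with voom and with exon lengths, and 2 on day 7 with the 4 libraries compared. In TSCs it was 0 on day 2 with those 4 libraries, and 2 between days 7 and 2 with them and with TPM above 1. On day 7 in XEN cells it was 1 with median-ratio scaling and with exon lengths.

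With the replicate number as a block, the members that were DE fell from 1 to 0 on day 2 in TSCs (Slc2a3, adjusted p = 0.193) and went from 0 to 2 on day 7 in XEN cells (Slc2a1 and Slc16a3, 0.0841 each); it changed no other call of a member. The block left 18 DE genes of 93 on day 7 in ESCs, 6 of 22 between days 7 and 2 in ESCs, 3 of 25 and 13 of 48 on days 2 and 7 in TSCs, and 43 against 12 on day 7 in XEN cells. Deviations of same-numbered libraries correlated between -0.46 and 0.27 over the 9 comparisons. Where the correlation was under -0.1, swapping the numbers of day 2 gave 3 members and 326 DE genes on day 2 in TSCs, 31 DE genes between days 7 and 2 in ESCs and 2 in XEN cells.

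The shares depend on the length used. In normoxia, that of Slc2a3 was 40.5%, 63.2% and 58.6% in ESCs and 3.65%, 8.73% and 7.30% in TSCs, with deposited TPM, undivided reads and transcript length, and that of Slc16a3 33.5%, 23.99% and 38.1% (ESCs), 74.4%, 64.6% and 78.0% (TSCs), and 0.701% and 0.853% (XEN cells) with deposited TPM and transcript length.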
